A study of Mus musculus with 8 samples.

Results

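The regions described here are long stretches of the mouse genome that were almost free of DNA methylation in both B and T cells. The 19 autosomes were divided into windows of 1 kb, and the methylation level of a window was the share of its reads that were methylated, over the CpGs listed in all 4 libraries. A window was tested if it held 5 or more such CpGs and 20 or more reads in each library. Runs of 4 or more consecutive tested windows, each under 15% in every library, were taken as shared valleys. This gave 643 valleys among 1497668 tested autosomal windows. They held 3187 windows, which is 0.213% of those tested, and 141131 CpGs. Because the valleys were chosen by these levels, their low methylation in both cell types is how they were selected and not a result.

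The libraries came from cells sorted from the spleens of untreated C57BL/6J mice aged 6 to 8 weeks, females and males. The B cells were resting CD43- B cells and the T cells were naive CD4+ T cells, and per the study's methods cells of several mice were pooled for a sample. The labels give 8 samples in 4 groups of 2, but 1 deposited table per group, so that each comparison rests on 4 libraries, and the 2 sexes are the only replicates of a cell type. Whole genome oxidative bisulfite sequencing was used, in which 5-hydroxymethylcytosine is meant to be read as unmethylated and the level therefore counts 5-methylcytosine. Median depth was 14 to 17 reads per autosomal CpG. The labels were checked at promoters, taken as 1 kb on each side of the gene start. All 6 B cell markers (such as Cd79b and Ms4a1) were lower in both B cell libraries, with levels of 8.36% to 28.7%, than in both T cell libraries. All 7 T cell markers (such as Cd3e and Lck) were lower in both T cell libraries, with levels of 0% to 7.65%, than in both B cell libraries.

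Most CpGs in a differentiated mammalian cell are methylated. The main exceptions are CpG islands, CpG-rich stretches usually near gene starts, and most of them are short. Much longer unmethylated stretches, known as DNA methylation valleys or canyons, are found around genes for transcription factors and signalling molecules that pattern the embryo. Many of these genes are kept silent in blood cells by Polycomb group proteins, which act without methylating the promoter DNA.

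The following 3 windows of 300 bases show the kinds of sequence concerned. They were read from the plus strand of GRCm38 (mm10), with every CG in capitals. Within the region named, the stretch with the most CG outside annotated untranslated regions was taken. The first is from the longest valley, at Ebf3 (chr7:137322579-137322878, 8134 bases from the Ebf3 start and outside any protein-coding gene), and the second from the longest valley that holds a Hox gene start (chr2:74691508-74691807, outside coding genes and 117 bases from the Hoxd10 start). The third lies in an intron of Satb1 (chr17:51821636-51821935), in the window beside a valley with the greatest excess of methylation in B cells.
Ebf3 valley: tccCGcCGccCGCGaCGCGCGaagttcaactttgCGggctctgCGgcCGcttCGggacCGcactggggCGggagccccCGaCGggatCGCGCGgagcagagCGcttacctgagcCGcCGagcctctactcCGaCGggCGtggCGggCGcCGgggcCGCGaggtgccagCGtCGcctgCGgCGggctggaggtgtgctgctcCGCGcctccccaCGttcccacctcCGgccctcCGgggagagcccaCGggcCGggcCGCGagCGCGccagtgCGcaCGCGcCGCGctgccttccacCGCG
Hoxd10 valley: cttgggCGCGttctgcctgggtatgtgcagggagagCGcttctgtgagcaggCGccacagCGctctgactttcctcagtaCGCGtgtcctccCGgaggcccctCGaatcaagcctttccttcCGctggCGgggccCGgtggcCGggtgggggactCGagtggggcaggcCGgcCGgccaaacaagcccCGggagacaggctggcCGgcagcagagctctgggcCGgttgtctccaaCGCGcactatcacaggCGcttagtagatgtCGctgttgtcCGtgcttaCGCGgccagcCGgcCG
Satb1 flank: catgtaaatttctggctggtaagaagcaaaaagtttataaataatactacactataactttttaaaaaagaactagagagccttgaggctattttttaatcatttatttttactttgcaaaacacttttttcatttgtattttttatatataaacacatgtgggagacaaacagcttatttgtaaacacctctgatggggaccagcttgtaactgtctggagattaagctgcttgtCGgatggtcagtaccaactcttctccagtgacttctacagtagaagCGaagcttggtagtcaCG
The Ebf3 stretch held 51 CG in 300 bases and the Hoxd10 stretch 28. The Satb1 stretch held 3. Over the 51 CpGs of the Ebf3 stretch the level in B cells was 4.48% (females) and 4.4% (males), and in T cells 3.15% (females) and 3.61% (males). Over the 28 CpGs of the Hoxd10 stretch it was 6.21% and 9.54% in B cells and 7.22% and 7.86% in T cells, females first. At the 3 CpGs of the Satb1 stretch the level was 100% in female B cells and 97.8% in male B cells, against 0% in female T cells (0 of 55 reads, which allows a level of up to 5.45%) and 1.96% in male T cells. The valley stretches were therefore low in all 4 libraries, while the flank stretch, with few CpGs, separated the cell types.

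The valleys were mostly near the shortest length that the rule admits. Of the 643, 353 (54.9%) were 4 kb long, 141 were 5 kb, 69 were 6 kb and 34 were 7 kb. Only 46 reached 8 kb or more, and the longest was 14 kb. Below the shortest length, 1136 runs of 3 windows, 5087 of 2 windows and 9616 single windows were also under 15% in every library, so the valleys are the long end of a continuous range. In 95 valleys the highest window lay between 14% and the 15% limit in some library. A limit of 14% gave 595 valleys and one of 16% gave 677. They were found on every autosome, from 1.12 per 10 Mb on chromosome 16 to 4.88 per 10 Mb on chromosome 19, and 127 of them (19.8%) lay within 20 kb of another valley.

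**Figure D1:**
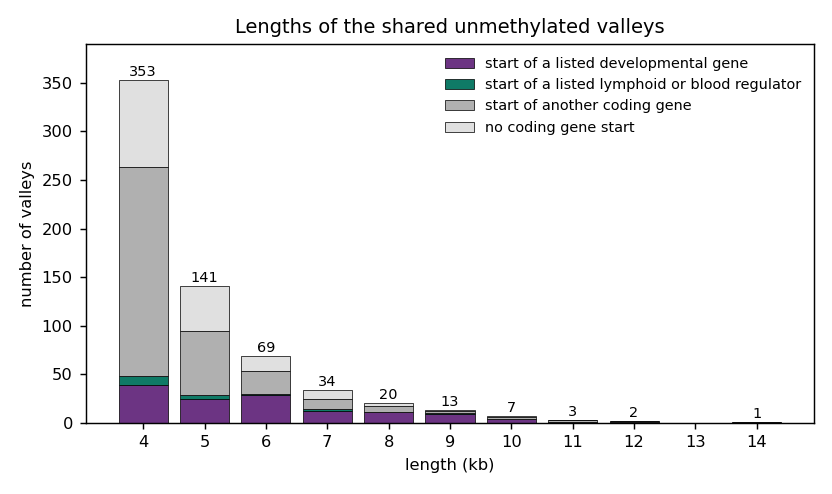
Number of valleys (vertical axis) by length in kb (horizontal axis), with each bar divided by the kind of gene that starts inside and the total above it. Valleys of 4 kb made up 353 of 643, and listed developmental genes (the lowest part of each bar) started in 11% of the 4 kb valleys and in 56.5% of the 46 valleys of 8 kb or more.

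The longest valleys are described first. The longest of all, 14 kb on chromosome 7 (chr7:137309001-137323000), held the start of Ebf3, a factor of the early B cell factor family that is best known from the nervous system. Over 808 CpGs, B cells of females and males were at 5.48% and 5.95% there, and T cells at 5.25% and 5.57%. The 12 kb valleys held Otx1, a homeobox gene of the forebrain (chr11:21993001-22005000, 5.79% to 6.63% in the 4 libraries), and Dmrt3, a doublesex-related factor (chr19:25602001-25614000, 4.99% to 5.93%). The 11 kb valleys held Tfap2d, an AP-2 family factor (chr1:19102001-19113000, 7.29% to 8.18%), Dlx2, a homeobox gene of forebrain and jaw development (chr2:71537001-71548000, 3.95% to 5.31%), and Dmrta2, another doublesex-related factor (chr4:109974001-109985000, 5.52% to 6.7%). The next 4 by position among those of 10 kb held Pax3, a neural crest and muscle factor (chr1:78192001-78202000), Evx2, a homeobox gene beside the Hoxd cluster (chr2:74655001-74665000), Skor1, a co-repressor of the SKI family (chr9:63142001-63152000), and Foxb1, a forkhead factor (chr9:69758001-69768000). Another valley of 10 kb, on chromosome 14 (chr14:12338001-12348000), held no coding gene start. In each of the 10 valleys named first all 4 libraries lay between 3.95% and 8.18%.

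In all, 476 valleys (74%) held the start of at least 1 protein-coding gene in the GENCODE M21 annotation (95% Wilson interval 70.5% to 77.3%), and 44 of them held more than 1. A further 106 overlapped a protein-coding gene without its start, and 24 held only the start of a non-coding gene. The other 37 overlapped no protein-coding gene and held no gene start. Overlap with the bodies of non-coding genes was not counted. Together the valleys held the starts of 525 of 20780 autosomal protein-coding genes, or 2.53%. The share was much higher in families of developmental regulators, for which the counts are given with no test because the lists were chosen with these data known. Of 9 paired box genes, which pattern the early embryo, 6 (66.7%) started in a valley. Among homeobox genes outside the Hox clusters it was 65 of 129 (50.4%), among forkhead genes 16 of 41 (39%) and among Sox genes 6 of 18 (33.3%). Of 39 Hox cluster genes, which set position along the body axis, 12 (30.8%) started in a valley, and of 15 T-box genes 4 (26.7%) did. Signalling ligands followed with 5 of 19 Wnt genes (26.3%), 3 of 20 Fgf genes (15%) and 2 of 21 BMP and GDF genes (9.52%).

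Basic helix-loop-helix factors of development gave 12 of 56 (21.4%), with Olig2 (9 kb), Neurod2 (6 kb) and Neurog2 (4 kb) among them. Zic and Gli genes gave 2 of 10, and 1 of 5 GATA genes, Gata6, started in a valley. Regulators that lymphocytes themselves use were also present. Of 17 listed T lineage regulators 5 (29.4%) started in a valley, namely Lef1, Zbtb7b, Bcl11b, Foxp1 and Satb1. Of 16 B lineage regulators 4 (25%) did, namely Bcl11a, Bcl6, Ebf1 and Foxo1, and of 30 further lymphoid and blood regulators 9 (30%) did, including Ikzf2, Myc, Myb, Jun and Gfi1. Of 18 housekeeping genes 1 (Tbp, 5.56%) and of 1127 autosomal olfactory receptor genes 0 started in a valley.

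Valleys were sorted by the genes that start in them. A listed developmental gene started in 130 (20.2%), a listed lymphoid or blood regulator in 18 (2.8%), some other coding gene in 328 (51%) and no coding gene in 167 (26%). These kinds follow the lists only, and Ebf3, Dmrt3 and Tfap2d, which were on no list, are counted among the other genes. Developmental valleys had a median length of 6 kb, against 4 kb for those of other coding genes.

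The floor of the valleys was low but not equally low, and its height went with the kind of gene. The mean level of the 4 libraries had a median of 4.85% in developmental valleys, 1.98% in those of other coding genes, 1.03% in those of lymphoid and blood regulators and 5.43% where no coding gene started. Over all valleys the median was 3.41%, with quartiles of 1.37% and 5.56%. Sox2, a regulator of pluripotent and neural cells, was at 5.5% and 6.29% in B cells of females and males and at 6.27% and 5.64% in T cells. Sox4, another gene of the family, was at 0.269% and 1.03% in B cells and at 0.0917% and 0.133% in T cells. Every library was thus lower at Sox4 than any library at Sox2. Sox4 is an extreme example, the lowest developmental valley in female B cells and in both T cell libraries. The median mean level of the Sox valleys was 4.65%. As single examples among long valleys, Dlx6 (9 kb), a homeobox gene of craniofacial development, was at 4.08% to 5.62%, and Bcl11a (9 kb), a zinc finger factor of B cell development and the only listed lymphoid or blood regulator in a valley of 8 kb or more, was at 0.803% to 1.29%.

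The highest floors were in short valleys without a coding start. A 4 kb valley near Tbx3 on chromosome 5 (chr5:119661001-119665000) stood at 9.38% to 12.2%, one inside Tbx4 on chromosome 11 (chr11:85892001-85896000) at 9.92% to 11.6%, and one on chromosome 9 in no coding gene (chr9:91393001-91397000) at 8.36% to 11.6%. The lowest were at Ing1, a chromatin reader (chr8:11555001-11559000, 0.0351% to 0.472%), at the neighbouring Ankrd13a and Git2 (chr5:114772001-114776000, 0.149% to 0.334%) and inside Jarid2, an accessory subunit of Polycomb repressive complex 2 (chr13:44730001-44734000, 0.116% to 0.54%). Longer valleys had higher floors, with a median mean level of 2.5% at 4 kb, 3.93% at 5 to 7 kb and 5.33% at 8 kb or more, and lower CpG density, with medians of 49.2, 46.8 and 42.2 CpGs per kb in the same order. For counting error, the library with the fewest reads in a valley had a median of 2758 reads, and the widest 95% Wilson interval of any valley spanned 4.28 percentage points.

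**Figure D2:**
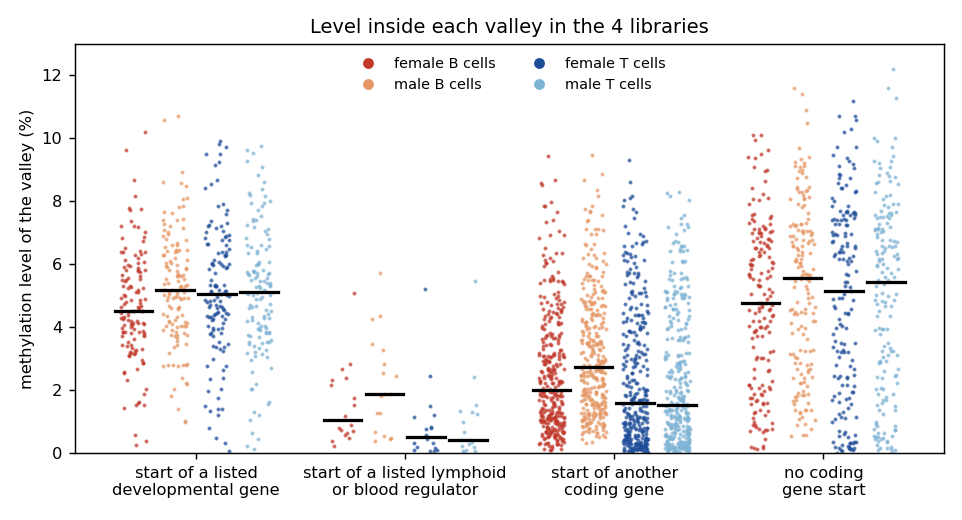
Methylation level of each valley in percent (vertical axis) for the 4 libraries, grouped by the kind of gene that starts in the valley; each point is 1 valley and each black line a median. Medians lie at 4.52% to 5.19% for listed developmental genes and at 0.424% to 1.88% for listed lymphoid or blood regulators, where both B cell libraries sit above both T cell libraries.

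Compared with runs of 1 to 3 windows that met the same limit, the valleys were similar in base composition. A median valley window had 54.8% GC and 42 CpGs per kb, against 55.7% and 47 in shorter runs and 43.8% and 9 in all tested autosomal windows. A coding gene started in 16% of valley windows, in 40.2% of the windows of shorter runs and in 1.15% of all tested autosomal windows. In a longer run 1 start is spread over more windows, so this share falls with length by itself. It does not show that valleys hold fewer starts per region. Methylated CpGs inside were rare. Of the 141131 CpGs, 345 (0.244%) were at 50% or above in all 4 libraries, and they lay in 194 valleys, which leaves 449 without one.

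Within the valleys B and T cells differed little, which the rule in part fixes, so the differences are given with no test. Median valley levels in B cells were 3.19% (females) and 3.95% (males), and those in T cells 3.22% and 3.18%. B minus T had a median of 0.314 percentage points over both sexes, 0.0595 in females and 0.551 in males, and it was 0.0723 without the male B cell library. In all, 93.2% of valleys in females and 91.1% in males were within 2 points. The B cell level was the higher one in both sexes in 313 valleys and the T cell level in 155. The libraries also differed in mitochondrial reads, a common gauge of incomplete conversion, of which 0.271% (females) and 0.727% (males) were called methylated in B cells and 0.0733% and 0.0709% in T cells. B minus T there came to 0.198 points for females and to 0.656 points for males, the former above and the latter near the median difference inside valleys. The part of conversion in the median difference inside valleys was not tested. The male B cell library was also the highest within valleys, above the female B cell library in 517 of 643.

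Single valleys went well beyond that size in either direction. At Bcl11b, a factor needed for T cell commitment, the level was 5.09% and 5.74% in female and male B cells and 1.49% and 1.54% in female and male T cells. At Ebf1, which specifies the B lineage, the order was the opposite, with 1.53% and 2.46% in B cells and 5.22% and 5.47% in T cells. In both genes the 2 libraries of a cell type lay closer to each other than to the other cell type. These 2 genes do not stand for their lists. Of the other B lineage regulators, Bcl11a, Bcl6 and Foxo1 were higher in B cells (B minus T of 0.148, 0.798 and 0.882 points). Of the other T lineage regulators, Lef1, Zbtb7b and Satb1 were higher in B cells (0.33, 2.01 and 2.35 points) and Foxp1 in T cells (-0.694 points). In developmental valleys the median B minus T was -0.137 points, and the T cell level was the higher one in both sexes in 49 of 130, the B cell level in 33.

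CpGs inside valleys that were missing from 1 to 3 libraries took no part in the choice. They numbered 3334 to 8643 per library, and their pooled level was 3.01% and 5.49% in B cells of females and males and 2.29% and 2.83% in T cells. These CpGs were therefore low as well. They are different CpGs in each library, so the libraries are not compared on them.

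The level rose over the first windows outside, at some borders more than at others. In the first window outside, which by the rule reached 15% in some library or was not tested, median levels were 31.1% to 35.8%. This is a description only. Of 1286 borders, 1143 had a tested first window, and in 800 of those all 4 libraries were at 15% or above. The highest library was under 20% at 213 borders and over 50% at 495. At 75 borders both B cell libraries were at 15% or above and both T cell libraries under it, and at 31 the reverse held. A window farther out, at 2 kb, median levels were 71.7% and 71% in B cells of females and males and 65.3% and 64.5% in T cells. At 10 kb they were 88.4% and 88.6% in B cells and 86.2% and 85.9% in T cells. The 2 sexes of a cell type lay within 1 point of each other at both distances, and both B cell medians were above both T cell medians from 1 to 20 kb. The same order held over all tested autosomal windows, with medians of 91.5% in both B cell libraries and of 90.6% and 90.3% in T cells. B minus T per window had a median of 1.29 points in windows 2 to 10 kb outside the valleys, 1.45 points outside the runs of 1 to 3 windows and 0.793 points over all tested autosomal windows. The first 2 values are not on like sets. Flanks of the shorter runs left out all windows under 15% in every library, and valley flanks only those inside valleys.

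**Figure D3:**
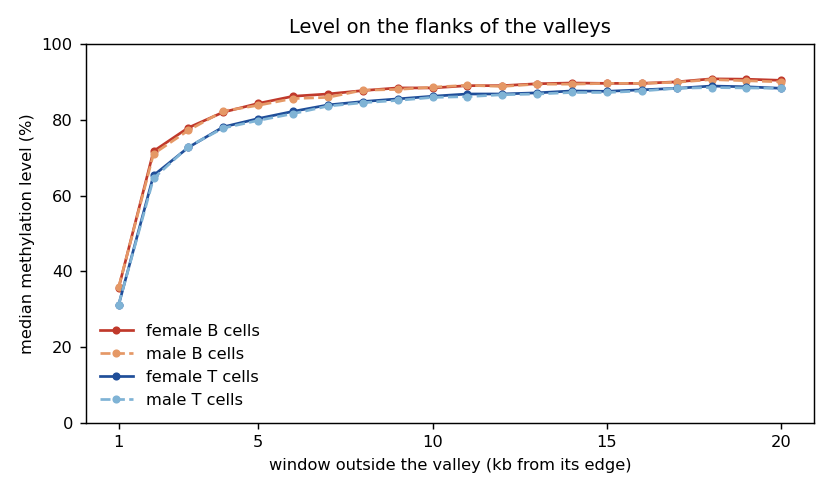
Median methylation level in percent (vertical axis) of windows 1 to 20 kb outside the valleys (horizontal axis, kb from the edge), 1 line per library. All lines rise from 31.1% to 35.8% in the first window to 85.9% to 88.6% at 10 kb, and the B cell lines run above the T cell lines throughout.

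The rise was slower around developmental genes than around other coding genes. At 2 kb outside, the median level of their flanks was 34.2% and 32.1% in B cells of females and males and 35.4% and 34.5% in T cells. Outside valleys of other coding genes it was 83.6% and 84% in B cells and 79.7% and 79.2% in T cells. Valleys without a coding start also rose slowly, with 41.9% and 43.9% in B cells and 38.4% and 38.5% in T cells at 2 kb. At 10 kb the developmental flanks had reached 78.4% to 80.4%. Around developmental genes the cell types were close at 2 kb, with a median B minus T per window of 0.0978 points, and around the other coding genes it was 2.56 points.

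Whether a border differed between the cell types was tested on windows 2 to 10 kb outside that were no part of any valley. The rule did not choose these windows, but they are not free of it. Borders were set by the same levels, and windows low enough in all libraries to form another valley were left out. Methylated and unmethylated reads of all 1530528 tested windows, the X chromosome included, were fitted with edgeR's quasi-likelihood test, with cell type and sex as terms and Benjamini-Hochberg adjustment over all of them. A window was called at an adjusted p under 0.05 if the mean levels of B and T cells were 20 percentage points or more apart. A window near 2 valleys was counted with the nearer one. Of 9018 flank windows, 577 (6.4%) were higher in B cells and 101 (1.12%) higher in T cells. Over all tested autosomal windows 2.38% were called higher in B cells and 0.824% higher in T cells. For valleys of 5 kb or more the shares were 5.05% and 0.76%, so that the T cell share fell under the background. In 576 of the 577 and in all 101 the direction was the same in both sexes. The called windows lay beside 181 valleys for those higher in B cells and 76 for those higher in T cells. Flanks of the shorter runs gave 5.16% and 1.5% of 196144 windows, so calls were also more frequent there than over all windows. The difference between the flanks of long and short runs was not tested. No flank window was called between females and males by edgeR or by limma (0 of 9018, with 440 at an unadjusted p under 0.05, against 2529 for cell type). Over all autosomal windows 0.00134% were called between the sexes.

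The gene in the valley separated the flanks further. Next to developmental valleys, 17 of 1719 flank windows (0.989%) were called higher in B cells and 5 (0.291%) higher in T cells, both under the shares over all autosomal windows. These flanks include windows under 15% in every library, which cannot reach the minimum difference of a call. A window beside the Pax3 valley, at 2.04% to 4.27% in the libraries, is an example. Such windows were not counted, so their part in the low shares was not tested. Satb1 is also on the homeobox list, and Foxo1 and Foxp1 on the forkhead list. The valleys at their starts were counted as lymphoid, with 9 of 14, 7 of 16 and 0 of 16 windows higher in B cells. Further valleys inside Satb1 and Foxp1 held no coding start and were counted as such. Beside them 13 of 13 and 8 of 18 windows were higher in B cells. Hox, paired box, Sox and T-box valleys had 97, 56, 85 and 43 flank windows, and 0 of them were called in either direction by edgeR or limma. Of these 281 windows 32 had an unadjusted edgeR p under 0.05. The GATA, Fgf and BMP and GDF valleys, with 12, 43 and 31 flank windows, also had 0 called by edgeR. Calls were made in other families, with 15 of 843 flank windows (1.78%) higher in B cells at the other homeobox genes, 12 of 258 (4.65%) at forkhead genes and 4 of 179 (2.23%) at basic helix-loop-helix genes. The homeobox and forkhead counts take in valleys counted as lymphoid. Of their calls, 9 of the 15 were at Satb1 and 7 of the 12 at Foxo1. Next to the 18 valleys of lymphoid and blood regulators, 59 of 279 flank windows (21.1%) were called higher in B cells and 6 (2.15%) higher in T cells, and 13 of these 18 valleys had at least 1 window higher in B cells. These calls were unevenly spread. The valleys of Lef1, Zbtb7b, Satb1, Bcl11b and Foxo1, the 5 with the most calls, held 43 of the 59, and the other 13 had 16 of 196 (8.16%). By list, 43.4% of flank windows were higher in B cells at T lineage regulators, 13.8% at B lineage regulators and 10.7% at the further lymphoid and blood regulators. Of the 9 calls at B lineage regulators, 7 were at Foxo1. For other coding genes it was 371 of 4878 (7.61%), and where no coding gene started 130 of 2142 (6.07%). With the lymphoid and blood valleys left out, and windows near both kinds counted with the remaining valleys, 520 of 8745 flank windows (5.95%) were higher in B cells. Valleys inside such genes but without their start, as in Satb1 and Foxp1, were kept in this count and in the 130 of 2142. Because the lists were made with earlier results known, these shares are descriptions beside the background and were not compared by a test.

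**Figure D4:**
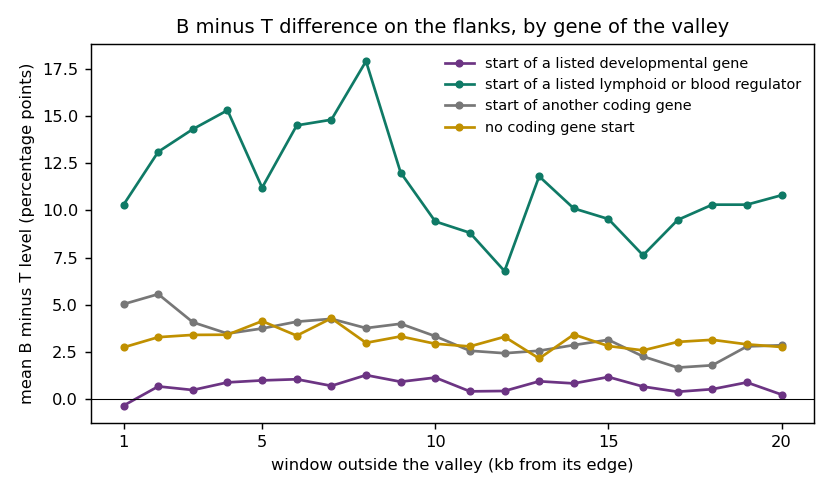
Mean B minus T level in percentage points (vertical axis) of windows 1 to 20 kb outside the valleys (horizontal axis, kb from the edge), 1 line per kind of gene. The line for the 18 lymphoid or blood regulator valleys lies at 13.1 points at 2 kb and 9.41 points at 10 kb, and that for developmental valleys at 0.671 and 1.14 points. A few valleys raise the mean of the former, whose medians are 3.76 and 2.21 points.

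The called windows were also counted by the side of the gene start, as a description with no test. In valleys with a single coding start, 310 of 3104 flank windows (9.99%) on the side into which the gene is transcribed were higher in B cells, against 86 of 3128 (2.75%) on the upstream side and 2.38% of all autosomal windows. Calls higher in T cells were 33 (1.06%) and 41 (1.31%). At lymphoid and blood regulators the gene body side gave 48 of 116 windows (41.4%) and the upstream side 9 of 130 (6.92%). Of the 48, 40 lay at Lef1, Zbtb7b, Satb1, Bcl11b and Foxo1, where all 40 gene body windows were called, and the remaining valleys had 8 of 76 (10.5%). At developmental genes the sides had 8 of 827 and 8 of 854.

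The largest differences with higher methylation in B cells are given for 1 window per valley, so that further windows of the same valley can exceed those of the next. Those of the first 5 valleys lay at Satb1 (both the first and the second), Lef1 and Zbtb7b, genes of T cell development, and at Dnajb4. The first was in Satb1, a chromatin organiser of thymocytes, in a window on chromosome 17 (chr17:51821001-51822000) that overlaps an exon of the gene and lies 7 kb outside a 4 kb valley within the gene. Its level was 100% in female B and 98.4% in male B cells, against 1.35% in female T and 1.45% in male T cells, a difference of 97.8 points (edgeR adjusted p = 5.37e-54, 5 CpGs). All 13 tested flank windows of that valley were called higher in B cells. Beside the valley at the Satb1 start (chr17:51831001-51835000), 9 of 14 flank windows were called, and the window with the greatest difference (chr17:51825001-51826000) had 98.2% and 91.7% in female and male B cells and 0% in both T cell libraries. These were 0 of 117 reads in female T cells and 0 of 124 in male T cells, which allow levels of up to 2.56% and 2.42%.

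Beside Lef1, a factor of the Wnt pathway in early T cells, the window 3 kb outside (chr3:131115001-131116000, overlapping an exon) was at 95.5% and 92.1% in B cells of females and males, and at 0% (0 of 223 reads, which allows up to 1.35%) and 0.535% in T cells (edgeR adjusted p = 1.07e-128). Beside Zbtb7b, which directs thymocytes to the CD4 lineage, an intronic window 8 kb outside (chr3:89382001-89383000) was at 92.6% and 90.1% in B cells and at 5.13% and 6.67% in T cells (edgeR adjusted p = 1e-90). The valley shared by Dnajb4, a heat shock co-chaperone, and Fubp1 was also among the first 5. An intronic Dnajb4 window 5 kb outside it (chr3:152204001-152205000) was at 92% and 93.1% in B cells and 5.08% and 8.94% in T cells (edgeR adjusted p = 6.58e-59). In all of these windows the B cell libraries were above 90% and the T cell libraries under 10%.

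At Bcl11b, Zbtb7b and Lef1 the unmethylated stretch ran on past the shared valley in T cells. Taking windows under 15% in both T cell libraries, the run that holds the 5 kb Bcl11b valley was 16 kb long (chr12:107991001-108007000). In the 11 kb of it outside the shared valley the level was 57.7% in female B and 61.1% in male B cells, against 1.31% in female T and 1.03% in male T cells. The 7 kb Zbtb7b valley lay in a T cell run of 15 kb, and the remaining 8 kb were at 76.6% (females) and 77% (males) in B cells, against 5.53% and 5.02% in T cells. The 7 kb Lef1 valley lay in a T cell run of 15 kb as well, whose remaining 8 kb were at 74.6% in both B cell libraries and at 1.5% and 1.06% in female and male T cells. In all 3 genes every tested window on the gene body side, 9 of 9, was called higher in B cells, and none of the upstream windows was. The same was true of 7 of 7 gene body windows at Foxo1, a forkhead factor that both lineages need.

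**Figure D5:**
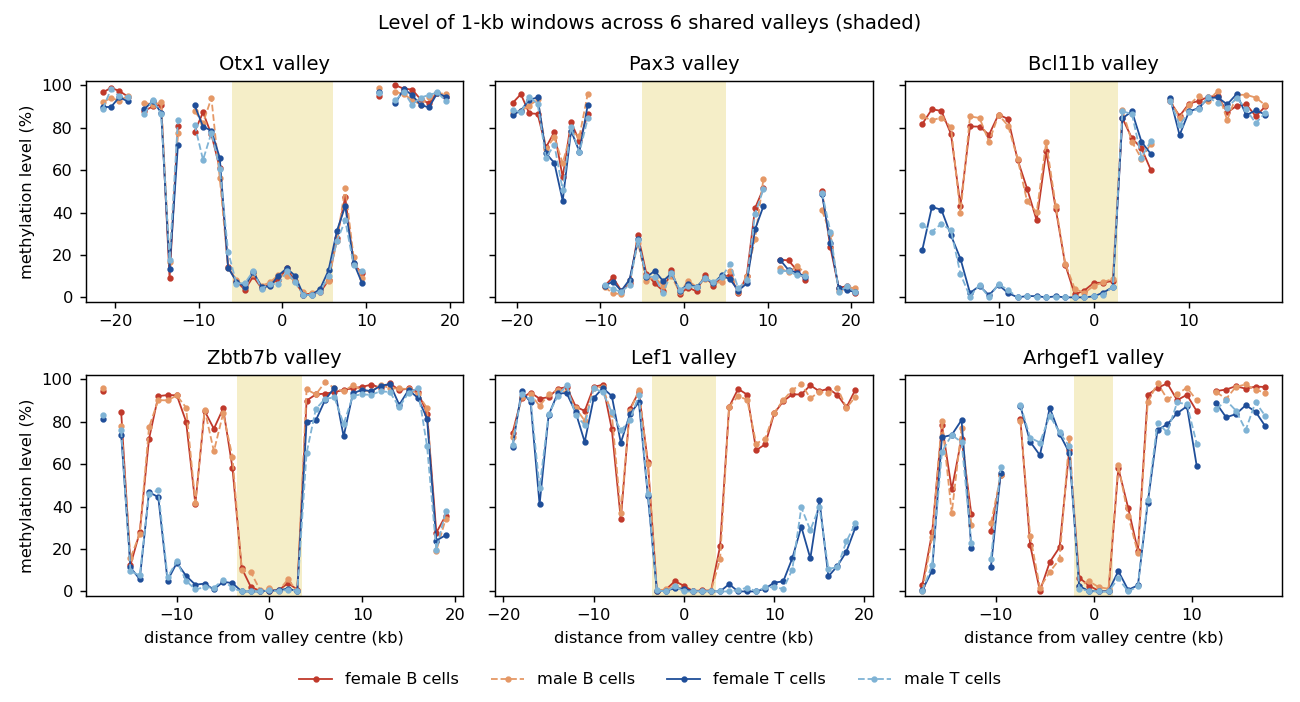
Methylation level in percent (vertical axes) of 1-kb windows by distance from the valley centre in kb (horizontal axes) at Otx1, Pax3, Bcl11b, Zbtb7b, Lef1 and Arhgef1; the shaded part is the shared valley, lines are the 4 libraries and gaps are windows not tested. The libraries follow each other at Otx1 and Pax3, while at Bcl11b, Zbtb7b and Lef1 the T cell lines stay low for 8 to 11 kb on 1 side of the valley where the B cell lines are high.

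At least 8 flank windows were higher in B cells beside 16 valleys, of which 4 held a listed lymphoid or blood regulator, 10 another coding gene and 2 no coding start. Those named here were picked for their many calls, and their counts stand beside 6.4% of all flank windows and 2.38% of all autosomal windows. Beside Myh9, the heavy chain of a non-muscle myosin, 11 of 17 flank windows were higher in B cells. Beside Arhgdib, an inhibitor of small GTPases in blood cells, it was 9 of 16, beside Smad7, an inhibitor of TGF-beta signalling, 9 of 18, and beside Klf13, a Krueppel-like factor, 9 of 16. Beside Fnbp1 and Laptm5 it was 9 of 18 each. Inside the valleys of Myh9, Arhgdib, Smad7 and Klf13 the levels were 0.0381% to 4.21%.

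The flanks with more methylation in T cells, again with 1 window per valley, lay beside genes of B cells in part. The largest difference was in an intron of Cd79a, which encodes a signalling chain of the B cell receptor, 620 bases from its start (chr7:24898001-24899000). This window is 3 kb outside a valley at Arhgef1, a guanine nucleotide exchange factor, and was at 13.8% and 9.21% in B cells of females and males and at 86.6% and 82.9% in T cells, a difference of -73.2 points (edgeR adjusted p = 3.77e-43). Among its 15 flank windows the Arhgef1 valley also had 3 flank windows higher in B cells beside 4 higher in T cells, so that calls of both directions met at 1 valley. The second valley in this order held Prob1, with the difference in a window over exons of Mzb1, an endoplasmic reticulum protein of B cells (chr18:35647001-35648000), at 23.6% and 32.3% in B cells and 88.6% and 86.3% in T cells (edgeR adjusted p = 3.96e-53). The others lay on chromosome 17 outside coding genes (chr17:48108001-48109000, -52.2 points), in an intron of Klhl14 (chr18:21642001-21643000, -50.9 points) and 4663 bases from the start of Zfp516 (chr18:82905001-82906000, -50.2 points). In each of these 5 windows both T cell libraries were above both B cell libraries.

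Width was also compared by extending each valley in 1 library at a time for as long as the next window was under 15%. Of the 643 valleys, 353 had the same width in all 4 libraries. The T cell run was the wider one in both sexes in 73 valleys and the B cell run in 37. The other 533 were in neither class. These counts depend on the sexes compared, with 131 against 81 in males alone and 117 against 87 in females alone. They depend on the measure, with 147 against 110 by the mean of the 2 libraries. With the limit they moved to 48 against 13 at 10% and 77 against 25 at 25%. The 5 greatest excesses in T cells were at Bcl11b (16 and 17 kb in female and male T cells against 5 kb in both B cell libraries), Zbtb7b (15 against 7 kb), Lef1 (15 and 16 against 7 kb), a valley on chromosome 11 without a coding gene (chr11:87753001-87758000, 13 against 5 kb) and the valley within Satb1 (12 against 4 kb). At the chromosome 11 valley the 8 kb outside the shared part were at 8.89% and 11.3% in B cells of females and males and at 1.18% and 1.19% in T cells, a small difference in level beside the excess in kb. None of the 73 took in a neighbouring valley. Of the 37, 10 did, the 5 greatest included, among them Cbx8, which encodes a Polycomb protein (19 kb in both B cell libraries against 9 and 5 kb in T cells), where the 5 kb of the run outside shared valleys were at 6.64% and 6.31% in B cells and 6.92% and 7.26% in T cells, and a valley within Pax6 (18 kb in both B cell libraries against 4 and 11 kb). There the windows between neighbouring shared valleys were under 15% in B cells. At Pax6 those windows, 2 kb in all, were at 8.45% and 12.3% in female and male B cells and 14.9% and 14.1% in female and male T cells, which is also a small difference. Without valleys that join another, T cell runs were wider in 73 and B cell runs in 27.

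The same rule applied to 1 cell type at a time gave more runs in T cells. Windows under 15% in both T cell libraries formed 951 runs of 4 or more with a total of 4905 kb, of which 310 runs held no shared valley. Windows under 15% in both B cell libraries formed 731 runs with 3727 kb, of which 94 held none. Among single libraries the counts were 1049 and 1050 runs in female and male T cells and 816 and 787 in female and male B cells. The sexes of a cell type were thus closer to each other than the cell types were. No test was made on these counts, since they rest on the limit that defines the valleys.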

How the data were processed

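The data are whole genome oxidative bisulfite sequencing of 4 libraries of sorted spleen cells. The submitters' processing notes name Trim Galore, FastQC, Bismark (0.13.1) and the mm10 build. The authors deposited, for every CpG with 5 or more reads, the methylation level as a fraction and the read count, both strands joined. Levels are rounded up to 3 decimals, so methylated reads were taken as the whole number at or below level times reads; the plain product gave 641 valleys.

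Valleys, gene starts (GENCODE M21) and sequences (RefSeq, GRCm38) were computed in Python (numpy, pandas). Windows were tested with edgeR (4.0.16, R 4.3.3) on methylated and unmethylated counts, with a common dispersion of 0.00626, cell type and sex as terms, and limma (3.58.1) as an alternative. A sequence beside a valley with more methylation in T cells is not reported here. The edgeR p-values rest on a spread taken from 1 trend shared by all windows, with full shrinkage to it. They do not measure a single window's own spread between these 4 libraries. The scripts were tested on simulated data. Intervals (95% Wilson) cover counting error only. Read counts are given beside the 0% levels of single flank windows. The flank windows named for the greatest differences held 63 to 364 reads in a library. Members and gene lists were chosen with earlier results of these data known. The genes named are those of the 10 longest valleys, the 5 valleys with the greatest called flank difference (1 window each) and the 5 with the greatest width difference in each direction, the 3 highest and 3 lowest levels, and examples from each list; Myh9, Arhgdib, Smad7, Klf13, Fnbp1 and Laptm5 were picked for their many calls.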

Additional observations from a re-analysis of the deposited data

How the results depend on the processing

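No paired analysis was possible because the groups share no replicate number and each has 1 table. The number of valleys (643) fell to 365 with a limit of 10% and to 290 with 5 windows or more, and leaving out 1 library gave 665 to 682; the other settings gave 571 to 836. Flank windows higher in B cells (577) numbered 1341 with no minimum difference, 1018 at 10 points, 298 in windows of 10 CpGs, 287 for 2 to 5 kb, 206 for runs of 5 or more and 400 with limma. Those higher in T cells (101) numbered 293, 233, 57, 58, 31 and 47 in the same order. The share of flank windows stayed above that of all autosomal windows for B cells in each of these settings (with limma 4.44% against 1.59%). For T cells the excess was small with 10 CpGs (1.08% against 1.04%) and turned for runs of 5 or more (0.76% against 0.824%). Leaving out 1 library gave 576 to 598 and 93 to 108. The median B minus T inside valleys (0.314) ranged from 0.0723 without male B cells to 0.546 without female B cells. Valleys wider in T minus wider in B (36) ranged from 27 with shifted windows to 52 at a 25% limit, and from 30 to 50 leaving out 1 library. Valleys with a coding start (74%) became 84.3% when any transcript start counts. The settings without joined valleys and without the lymphoid lists were chosen after seeing the data. With 1 table per group, no spread within a group is known, and although the name of each table carries the number of a single sample, whether it holds that sample alone is not given in the sources used here.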
